A study of Mus musculus with 8 samples.

Results

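Among the 39017 gene identifiers of a count table from mouse embryonic fibroblasts, 10 genes encode the main cytoskeletal proteins described here: the cytoplasmic actins Actb and Actg1, the intermediate filament gene Vim, the alpha-tubulin genes Tuba1a, Tuba1b and Tuba1c, and the beta-tubulin genes Tubb5, Tubb4b, Tubb6 and Tubb2a. They were chosen by name as short, abundant and well-translated cytoskeletal mRNAs, and their identifiers were matched to gene symbols. All 10 passed the filter on low counts and are among the 18952 genes tested. The fibroblasts came from E13.5 embryos. In the knockout, Mettl3, the catalytic subunit of the enzyme that methylates adenosines of mRNA (N6-methyladenosine, m6A), had been removed with a Cre recombinase activated by 500 nM 4-hydroxytamoxifen over 48 h. Loss of the protein and of m6A was examined after 7 days, and cells were harvested the next day. Whether control cells also received the drug, and what drives the Cre, is not stated in the labels. The 4 groups, each of 2 biological replicates (8 libraries), were control total, knockout total, control granule and knockout granule. Total RNA came from unstressed cells. Granule RNA was prepared after a 30 min exposure to 500 µM sodium arsenite and was enriched for stress granules by centrifugation, so fraction and stress changed together and a granule to total difference combines both.

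Actins polymerise into the microfilaments of the cell cortex and stress fibres, alpha- and beta-tubulins pair into the heterodimers of microtubules, and vimentin forms the intermediate filaments typical of mesenchymal cells. Both polymer systems feed back on their own mRNAs. Free actin monomer holds back the coactivators of serum response factor, which binds the CArG box of many actin-related genes, and excess free tubulin triggers decay of tubulin mRNAs through a factor (Ttc5) that recognises the first residues of the tubulin chain on translating ribosomes. Stress granules are cytoplasmic assemblies of untranslated mRNA and protein that form when translation initiation stops, for example under arsenite, and long mRNAs are known to be enriched in them.

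The coding starts are shown because they encode the first residues of the chain, which tubulin autoregulation recognises. Their near identity also bears on how reads can be assigned. Each line gives the first 24 coding bases of the main annotated transcript (GENCODE M21, GRCm38). Capitals mark the first 12 bases in the tubulins and the start codon in the others.
Actb: ATGgatgacgatatcgctgcgctg
Actg1: ATGgaagaagaaatcgccgcactc
Vim: ATGtctaccaggtctgtgtcctcg
Tuba1a: ATGCGTGAGTGCatctccatccat
Tuba1b: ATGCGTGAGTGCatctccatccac
Tuba1c: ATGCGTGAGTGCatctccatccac
Tubb5: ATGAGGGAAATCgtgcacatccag
Tubb4b: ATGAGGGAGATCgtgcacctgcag
Tubb2a: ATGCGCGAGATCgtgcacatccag
The capitals are the same in the 3 alpha-tubulins, and the whole stretch of Tuba1b is identical to that of Tuba1c. Tuba1a differs from both at 1 of the 24 bases. The beta-tubulins shown differ from each other at 3 or 4 of the 24 bases, and Actb differs from Actg1 at 6. Over the whole coding sequence, identity was 98.3% between Tuba1a and Tuba1b, 97.1% between Tuba1a and Tuba1c, 97.9% between Tuba1b and Tuba1c, and 88.7% between Actb and Actg1. Between the beta-tubulins it ranged from 80.2% to 84.5%.

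This likeness limits what a count can say about a single gene. Of all stretches of 100 bases in its main transcript, Tuba1b shared 73.0% with the transcripts of other genes, Tuba1a 65.9%, Tuba1c 53.4%, Actg1 51.1%, Tubb2a 36.9% and Tubb4b 30.6%. Actb shared 1.10%, and Vim, Tubb5 and Tubb6 shared none. For the alpha-tubulins most of the sharing was with each other, for Tubb2a with Tubb2b, and for Actg1 and Tubb4b with processed pseudogenes (mainly Gm12715 and Tubb4b-ps1). Tuba1a and Tuba1b also overlap the annotated exons of Gm49450 over 26.2% and 27.4% of their exonic bases. How the authors' counting treated reads that match several genes, and whether it used strand, is not given in the sources used here, so the split among Tuba1a, Tuba1b and Tuba1c, and the levels of Actg1, Tubb4b and Tubb2a, are uncertain to that extent. Counts of the pseudogenes sharing such stretches were at most 0.781% of the Actg1 count and at most 4.68% of the Tuba1b count in any library.

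The CArG box was searched for on both strands as CC, any 6 bases of A or T, then GG, in the promoter windows of RefSeq (GRCm38.p6, 250 bases before to 50 bases after the start site). Windows were found for 8 of the 10 genes; Actb and Tubb6 had no entry. Only the Actg1 window held the box, 90 bases before the start site, and 535 of all 32851 windows (1.63%) held it. The 120 bases that lead up to the Actg1 start site (chr11:120348496-120348615, minus strand) are given with the box in capitals.
Actg1 promoter: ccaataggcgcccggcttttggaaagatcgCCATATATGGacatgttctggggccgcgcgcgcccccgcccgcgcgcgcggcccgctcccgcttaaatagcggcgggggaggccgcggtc
A match describes these letters only and shows no binding.

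Total counts per library ranged from 67257220 to 123508539. Mettl3 was at 25.2 ± 0.306 CPM (counts scaled to library size with trimmed-mean factors; SD, n = 2) in control total and 6.68 ± 0.953 in knockout total, and at 15.6 ± 0.251 in control granule and 5.97 ± 0.579 in knockout granule. Fibroblast markers (10 of 10 counted in every library) summed to between 6159 and 9381 CPM in a library. Most of it was Col1a1 (1225.9 to 3964.9 CPM), Fn1 (1295.2 to 3697.3), Col1a2 (710.9 to 1494.2) and Vim (999.2 to 3436.9). Vim is itself 1 of the 10 genes described here. Col3a1, Postn and Pdgfrb were at up to 446.4, 441.7 and 267.2 CPM. Dcn (8.01 to 18.3), Thy1 (3.3 to 12.9) and Pdgfra (1.39 to 3.47) were low. The summed markers of each other cell type were lower but not absent. The 5 epithelial markers summed to between 66 and 180 CPM, most of it Krt14 (48.7 to 141.2 CPM) and Krt5 (9.91 to 30.9), with Cldn4 at up to 9.8 and Epcam and Cdh1 at up to 1.61 and 2.16. The 5 erythroid markers summed to between 31.2 and 92.3 CPM, with Hbb-bs at up to 51.8. The 4 macrophage markers summed to between 24.6 and 54.5 CPM, mostly Ptprc (16.7 to 41.8), and the 4 neural markers to between 4.43 and 39.6, with Tubb3 at 4 to 39.4. The 4 endothelial markers summed to between 6.24 and 20.1 CPM, with Kdr at up to 14.1, and the 4 skeletal muscle markers to between 0.313 and 2.23. Myod1, Myf5 and Sox2 were at 0 in at least 1 library and at most 0.0831 CPM in any. The part of these cells in the results was not tested.

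Across well-expressed genes, the replicates of knockout total differed from each other more than those of the other groups. Their median absolute log2 difference over 10261 such genes was 0.813, against 0.312 in control total, 0.134 in knockout granule and 0.101 in control granule. The replicate ratio followed GC content in knockout total (Spearman rho -0.734 across genes) and, with the opposite sign, in control total (0.764). The rho was -0.155 in control granule and 0.041 in knockout granule. For the cytoskeletal genes described here, the median absolute log2 difference was larger in control total (0.484) than in knockout total (0.351). For these genes it was 0.119 in control granule and 0.105 in knockout granule. Replicate 1 of knockout total held 7.60% mitochondrial counts and replicate 2 held 0.807%. The shares were 0.73% and 0.881% in control total, 0.59% and 0.678% in control granule, and 6.16% and 8.81% in knockout granule, so replicate 1 was close to knockout granule and replicate 2 to the control libraries. Which of the pair is less like knockout total RNA in general cannot be told from 2 libraries. Calls are therefore given with all libraries and without either one of the pair.

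The 10 mRNAs together held 1.43% and 1.06% of all counts in control total and 1.84% and 2.02% in control granule. They held 0.897% and 0.874% in knockout total and 1.07% and 1.004% in knockout granule, with 95% Wilson intervals no wider than 0.0028 percentage points on either side, which cover counting error only. The share was higher in granule than in total libraries of the same genotype and lower in knockout than in control libraries of the same fraction, with no overlap. Exact permutation tests within strata (two-sided) gave p = 0.0556 for fraction and for genotype, the smallest value the design allows, and an adjusted p of 0.191 over 24 such tests. As these are bulk samples, fewer cells of a type and less RNA per cell cannot be told apart. Actb alone made up between 40.4% and 57.6% of the counts of the 10 genes.

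Levels were compared between genes per length, as RPKM (CPM per kilobase of summed exons). In control total RNA, Actb led at 1846 ± 529.0 RPKM (SD, n = 2). It was followed by Tubb5 at 520.3 ± 145.9, Actg1 at 436.5 ± 98.4, Vim at 417.5 ± 88.3, Tuba1a at 311.4 ± 87.5, Tuba1b at 274.5 ± 52.8 and Tubb6 at 217.4 ± 53.1 RPKM. Neighbours from Tubb5 down to Tubb6 in that order overlapped between replicates. Tubb4b (142.2 ± 41.0), Tuba1c (80.4 ± 8.30) and Tubb2a (16.5 ± 2.92) were each below all those before them. Actb was first and Tubb2a last in all 4 groups. In control granule Actg1 (741.0 ± 23.9) and Vim (699.3) came next after Actb, with overlapping ranges. In knockout granule Actg1 was the fourth highest (198.3 ± 28.8), and its range overlapped that of Tuba1b. The place of Vim depends on the length used, as its summed exons cover 4743 nt and its longest protein-coding transcript 2193 nt. Per kilobase of the longest transcript, Vim was at 903 ± 190.9 CPM in control total and 1512 ± 77.8 in control granule, the second highest in both. Its range overlapped that of Tubb5 (653.5 ± 183.3) in control total and lay above that of Actg1 (1009 ± 32.5) in control granule. Actb stayed first and Tubb2a last in all 4 groups by this length too. By CPM, Actb ranked 4 of the 18952 genes tested, Vim 27, Tubb5 41 and Actg1 68, whereas Tubb2a ranked 6329, so Tubb2a was not among the abundant mRNAs of these cells.

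Actb encodes cytoplasmic beta-actin (chr5:142903115-142906754, minus strand). Its level was 5948 and 3944 CPM in control total, 9954 and 10916.5 in control granule, 5735 and 3409.6 in knockout total, and 5446 and 5247 in knockout granule. Both control granule libraries lay above all 6 others, which overlapped each other. Actg1 encodes cytoplasmic gamma-actin (chr11:120345690-120348542, minus strand). It was measured at 1345 and 975 CPM in control total, 1925 and 2014 in control granule, 595.5 and 782 in knockout total, and 581 and 473 in knockout granule. The 4 knockout libraries all lay below the 4 control libraries, and knockout granule lay below knockout total, the opposite order to that in control cells.

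Vim encodes vimentin (chr2:13573927-13582826, plus strand). It reached 2276 and 1684 CPM in control total, 3196 and 3437 in control granule, 1238 and 999.3 in knockout total, and 1269 and 1354 in knockout granule. All knockout libraries were again below all control libraries, and granule was above total in both genotypes, by a small margin in the knockout.

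The alpha-tubulin genes lie together on chromosome 15. Tuba1a (chr15:98949837-98953703, minus strand) was at 673 and 449.8 CPM in control total, 472 and 549 in control granule, 304 and 294 in knockout total, and 331 and 310.4 in knockout granule. Its knockout levels lay below its control levels, and its granule and total levels overlapped in control cells. Tuba1b (chr15:98931425-98934565, minus strand) was at 585 and 445 CPM in control total, 554 and 691 in control granule, 62.8 and 399.7 in knockout total, and 375 and 349.8 in knockout granule. The value of 62.8 belongs to knockout total replicate 1, and the log2 ratio of 2.67 between the knockout total replicates was the largest replicate ratio of any of the 10 genes. Tuba1c (chr15:99029891-99038110, plus strand) was at 197 and 170.5 CPM in control total, 297 and 352 in control granule, 55.9 and 186.5 in knockout total, and 266 and 226 in knockout granule. Granule exceeded total in both genotypes, and the same library gave the lowest value.

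Tubb5 encodes the leading beta-tubulin of these cells (chr17:35833921-35838306, minus strand). Its level was 2074 and 1388 CPM in control total, 1744 and 1921 in control granule, 1341 and 1419.6 in knockout total, and 1344.5 and 1351.5 in knockout granule. It varied less across groups than the actins, and among the design's comparisons only control and knockout granule did not overlap. Tubb4b (chr2:25222160-25224702, minus strand), which encodes a widely expressed beta-tubulin, was at 357.5 and 236.5 CPM in control total, 438 and 459.5 in control granule, 182 and 313 in knockout total, and 214 and 199 in knockout granule. Tubb6 (chr18:67390717-67402749, plus strand) was at 621 and 438 CPM in control total, 577 and 615 in control granule, 435 and 509.0 in knockout total, and 451 and 410.3 in knockout granule. For both genes the granule libraries of the 2 genotypes did not overlap, and the total libraries did. Tubb2a (chr13:34074274-34078007, minus strand) was the least abundant, at 29.9 and 23.2 CPM in control total, 36.2 and 36.3 in control granule, 14.1 and 16.8 in knockout total, and 43.9 and 35.8 in knockout granule. Its lowest group was knockout total and its granule ranges overlapped between genotypes, unlike those of the other 9 genes.

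**Figure D1:**
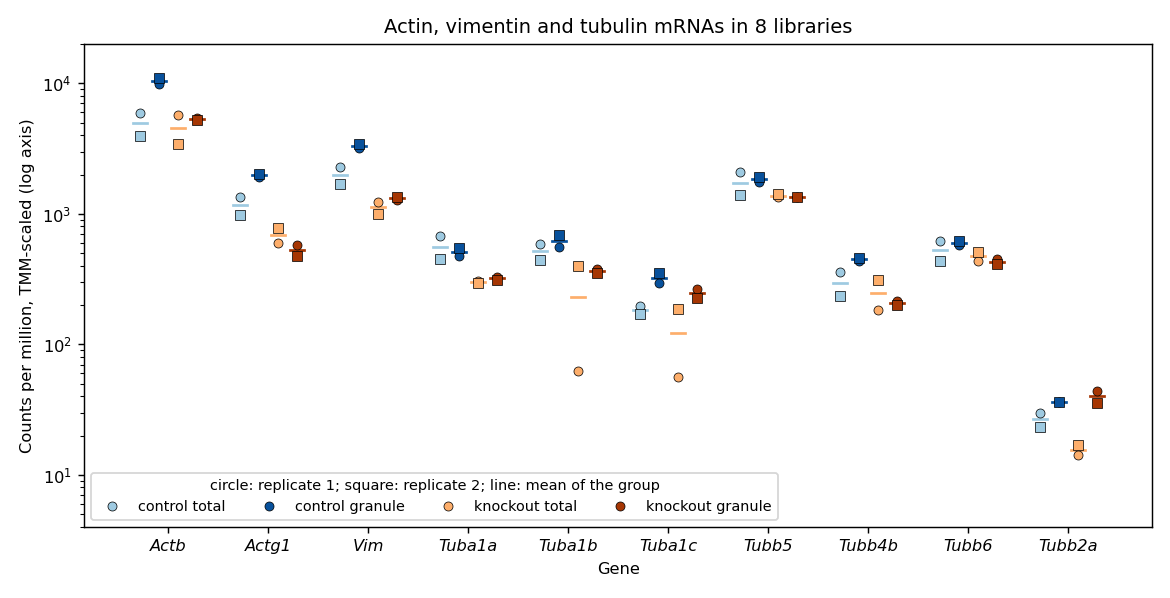
CPM (log axis) of the 10 genes in each of the 8 libraries; circles and squares are replicates 1 and 2, lines are group means. The control granule libraries are the highest for Actb, Actg1 and Vim, and knockout total replicate 1 gives the low points of Tuba1b (62.8) and Tuba1c (55.9).

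The first comparison asked which of these mRNAs were enriched in granules of control cells. Actb was 2.11-fold higher in granule than in total RNA (log2 1.08, SE 0.35), Tuba1c 1.76-fold (0.82, SE 0.49), Actg1 1.70-fold (0.76, SE 0.29), Vim 1.67-fold (0.74, SE 0.27), Tubb4b 1.51-fold (0.60, SE 0.33) and Tubb2a 1.36-fold (0.45, SE 0.27). For these 6 genes both granule libraries lay above both total libraries, against 35.2% of all tested genes. None of the 10 passed an adjusted p of 0.05 in edgeR's quasi-likelihood test with Benjamini-Hochberg adjustment (10.1% of all genes did). An unadjusted p under 0.05 was reached by 3 of the 10, against 5683 of all 18952 genes. The smallest adjusted p was 0.0843, for Actb. The median log2 difference of the 10 genes was 0.52, against -0.06 over all tested genes. The differences of Tuba1b (0.27, SE 0.68), Tubb6 (0.17, SE 0.27), Tubb5 (0.08, SE 0.28) and Tuba1a (-0.14, SE 0.27) were smaller than their standard errors. The sign of Tubb5 turned under upper-quartile scaling (-0.15) and library size alone (-0.0335), and that of Tubb6 turned under upper-quartile scaling (-0.0657).

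These counts changed with the libraries fitted. Without knockout total replicate 1, edgeR's quasi-likelihood test called 5 of the 10, all higher (40.6% of all genes were called in either direction): Actb (log2 1.08, SE 0.20, adjusted p = 0.000934), Tuba1c (0.83, SE 0.17, 0.00171), Vim (0.75, SE 0.18, 0.00496), Actg1 (0.77, SE 0.19, 0.00559) and Tubb4b (0.60, SE 0.19, 0.0228). Without knockout total replicate 2 it called 6 (39.9% of all genes). A fit of the 4 control libraries alone called 4 of the 10 (42.4% of all genes), limma's voom with a weight per library called 5 (39.1%) and DESeq2 called 1 (21.3%). Removal of the GC trend of each library gave 6, against 20.1% of all genes.

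In knockout cells the granule to total differences were mixed in sign, 6 above 0 and 4 below. Only Tubb2a passed the threshold, 2.58-fold higher in granule than in total RNA (log2 1.37, SE 0.27, adjusted p = 0.0158 by edgeR's quasi-likelihood test), against 9.17% of all genes called higher and 17.6% called in either direction. The median of the 10 genes was 0.16, against 0.04 over all tested genes. Tuba1c was at 1.02 (SE 0.49), Tuba1b at 0.65 (SE 0.68), Vim at 0.23 (SE 0.27), Actb at 0.23 (SE 0.34) and Tuba1a at 0.10 (SE 0.27). Actg1 was at -0.39 (SE 0.29), Tubb4b at -0.26 (SE 0.33), Tubb6 at -0.13 (SE 0.27) and Tubb5 at -0.0341 (SE 0.28), the last turning to 0.0316 under library size alone. Tubb2a kept its call without either knockout total library (log2 1.24, SE 0.24, adjusted p = 0.00147 without replicate 1, where 34% of all genes were called). It lost the call when any control granule or knockout granule library was left out, and fewer of all genes were called in those fits too. It also lost the call in the fit of the knockout libraries alone (adjusted p = 0.12 by edgeR, 0% of all genes called). With voom its adjusted p was 0.0946, and 5.18% of all genes were called. Tubb2b, the paralog with which Tubb2a shares sequence, was also called higher (log2 1.17, SE 0.25, adjusted p = 0.0185 by edgeR's quasi-likelihood test). Without knockout total replicate 2, Tuba1b (2.40) and Tuba1c (2.01) were called as well (48.2% of all genes were), whereas without replicate 1 their values were -0.15 and 0.39 and neither was called.

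The comparison of knockout with control total RNA addressed the level of these mRNAs in unstressed cells. All 10 fold changes were below 0, from -0.11 for Actb to -1.15 for Tuba1b, with a median of -0.68 against 0.02 over all tested genes. None was called (0.412% of all genes were). An unadjusted p under 0.05 was reached by 4705 of all 18952 genes and by 4 of the 10: Tuba1a (-0.91, SE 0.27), Vim (-0.82, SE 0.28), Tubb2a (-0.78, SE 0.27) and Actg1 (-0.75, SE 0.29). The adjusted p of these 4 in edgeR's quasi-likelihood test lay between 0.145 and 0.172. For 5 genes, these 4 and Tuba1b, both knockout libraries lay below both control libraries, against 24.7% of all genes. Without knockout total replicate 1, edgeR called Vim (-0.98, SE 0.23, adjusted p = 0.0271) and Tuba1a (-0.93, SE 0.25, adjusted p = 0.0457) lower, against 5.52% of all genes called in either direction. In that fit Tuba1b was at -0.36, and Tuba1c (0.0223) and Tubb4b (0.0764) were no longer below 0. Without replicate 2, 5 were called lower (47.8% of all genes were called), among them Tuba1b (-2.93) and Tuba1c (-1.61), whose low values come from replicate 1. With the GC trend removed, Actb (0.0307), Tubb4b (0.15) and Tubb6 (0.44) also turned above 0. DESeq2 called 2 of the 10, against 12.9% of all genes.

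In the granule fraction, Actg1 was 0.268 times its control level in the knockout (log2 -1.90, SE 0.30, adjusted p = 0.0118 by edgeR's quasi-likelihood test) and Vim 0.396 times (-1.34, SE 0.28, adjusted p = 0.0269). These 2 calls stand against 3.66% of all genes called lower and 9.45% called in either direction. The same libraries differed in their mitochondrial share, 6.16% and 8.81% in knockout granule against 0.59% and 0.678% in control granule, whose part in the result was not tested. Tubb4b was at -1.12 (SE 0.33, adjusted p = 0.074 by edgeR) and Actb at -0.96 (SE 0.35, adjusted p = 0.12 by edgeR). Below these came Tuba1b (-0.78, SE 0.68), Tuba1a (-0.67, SE 0.27), Tubb6 (-0.47, SE 0.27), Tubb5 (-0.44, SE 0.28) and Tuba1c (-0.40, SE 0.49), none of them called. For these 9 genes both knockout granule libraries lay below both control granule libraries, against 36.6% of all genes. Tubb2a (0.14, SE 0.27) overlapped. The median was -0.73, against 0.08 over all tested genes.

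The same granule libraries gave more calls in other fits. A fit of the 4 granule libraries alone called those 9 genes lower by edgeR's quasi-likelihood test, with adjusted p from 1.28e-07 for Actg1 to 0.015 for Tuba1c, against 57.3% of all genes called in either direction. Voom, which weights the 8 libraries by quality, called 9 (55% of all genes), and 6 were called without knockout total replicate 1 (39% of all genes): Actg1, Vim, Actb, Tuba1a, Tuba1b and Tubb4b. Without replicate 2, 8 were called (38.9% of all genes). The calls of Actg1 and Vim were both lost without any 1 of the 4 granule libraries. Such a fit leaves 1 library in a group, and nearly all calls of this comparison over all genes were lost too. The log2 fold changes stayed between -2.11 and -1.77 for Actg1 and between -1.46 and -1.34 for Vim. Vim also lost its call without control total replicate 1 (0.0503) or 2 (0.0525), and Actg1 did not.

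Whether the granule to total ratio differed between genotypes was tested by the interaction. None of the 10 was called (0.517% of all genes were). An unadjusted p under 0.05 was reached by 4898 of all 18952 genes and by 2 of the 10. These were Actg1 (-1.15, SE 0.41) and Tubb2a (0.92, SE 0.38), with adjusted p of 0.141 and 0.179 in edgeR's quasi-likelihood test. DESeq2 called 0 of the 10, against 14.4% of all genes. The median was -0.21, against 0.09 over all tested genes. Without knockout total replicate 1, Actg1 (-1.35, SE 0.30, adjusted p = 0.00859 by edgeR) and Tubb4b (-1.21, SE 0.30, adjusted p = 0.015) were called lower, against 18.6% of all genes called in either direction. Without replicate 2, 6 were called (46.4% of all genes), including Tuba1b at 2.08 and Tuba1c at 1.15, whose values without replicate 1 were -0.43 and -0.44. The interaction shares its libraries with the other comparisons and adds no separate measurement.

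**Figure D2:**
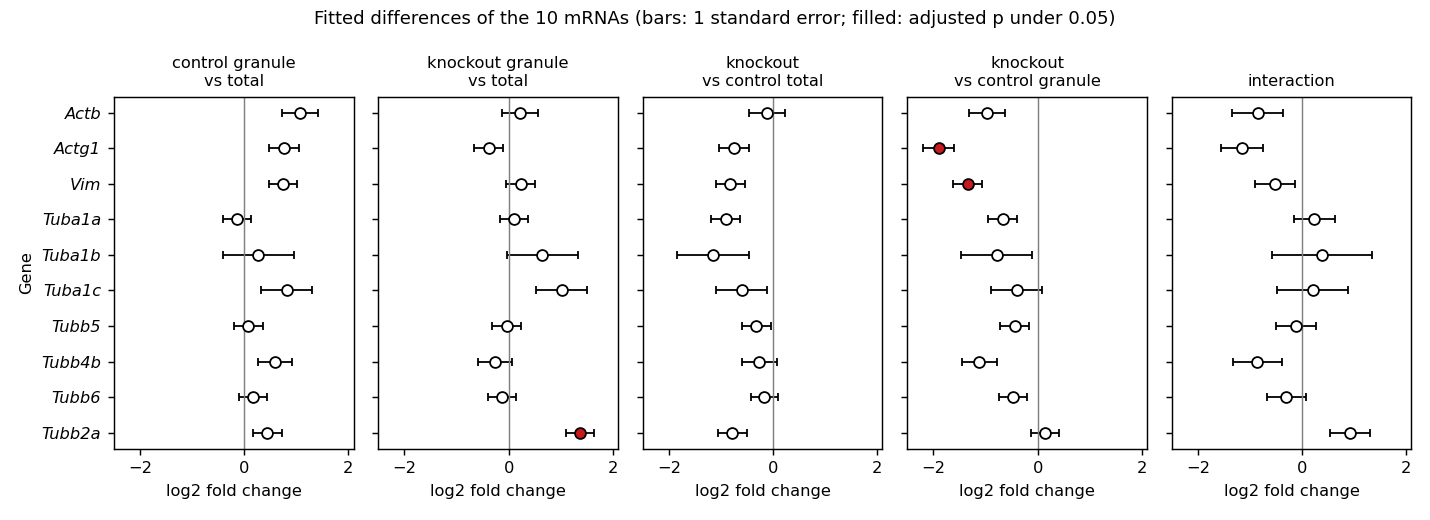
Fitted log2 fold changes of the 10 genes in the 5 comparisons, with bars of 1 standard error; filled points passed an adjusted p of 0.05. Filled points are Tubb2a in knockout granule against total and Actg1 and Vim in knockout against control granule, and the widest bars are those of Tuba1b.

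Ratios within a library do not depend on scaling. Per length, the ratio of Actb to Actg1 counts was 4.39 and 4.01 in control total and 5.13 and 5.38 in control granule. The ratio was 9.55 and 4.33 in knockout total and 9.29 and 11 in knockout granule. Actg1 shared 51.1% of its stretches of 100 bases with other genes and Actb 1.10%. How such reads were counted is not known, so the size of this ratio is uncertain to that extent. The knockout granule pair lay above both control groups, and of the knockout total pair only replicate 1 did so. Exact permutation tests (two-sided) of the log2 ratio gave p = 0.111 for fraction and for genotype, with an adjusted p of 0.266. The tubulin to actin ratio in control cells was 0.675 and 0.699 in total and 0.379 and 0.393 in granule RNA, and it was 0.541 and 0.538 in knockout granule. The knockout total libraries lay far apart, at 0.382 and 0.800, and the exact permutation p was 0.167 for fraction and 0.889 for genotype. The Vim to actin ratio was lower in the knockout in both fractions (log2 difference -0.60 in total and -0.26 in granule, exact permutation p = 0.0556, adjusted p = 0.191).

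Within the alpha-tubulins, Tuba1c took 12.2 ± 1.48% in control total and 18.8 ± 0.236% in control granule, and 14.3 ± 4.97% in knockout total and 22.4 ± 1.21% in knockout granule (SD, n = 2 each). The share was higher in granule libraries in both genotypes (exact permutation p = 0.0556, adjusted p = 0.191). Tuba1a took 46.4 ± 2.78% in control total and 37.5 ± 0.896% in control granule, and its knockout total values, 74.4% and 35.6%, were the widest pair of any isotype. Within the beta-tubulins, Tubb5 took between 52.8% and 59.5% in every library. Tubb4b took 15.8 ± 0.284% in control total, 20.8 ± 0.428% in control granule and 14.0 ± 0.367% in knockout granule, the last between its knockout total values of 12.9% and 18.8%. Tubb2a took 1.30 ± 0.0138% in knockout total and 3.50 ± 0.406% in knockout granule, against 1.86 ± 0.180% and 2.18 ± 0.115% in control cells, and its share was higher in granule in both genotypes (exact permutation p = 0.0556, adjusted p = 0.191). Of the 24 tests of ratios and shares, 7 reached p = 0.0556, the smallest value that the exact permutation test allows here. That value is above the threshold for a call even before adjustment, so none of the 24 could pass. The lack of passing tests is therefore no evidence that the ratios and shares were unchanged.

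**Figure D3:**
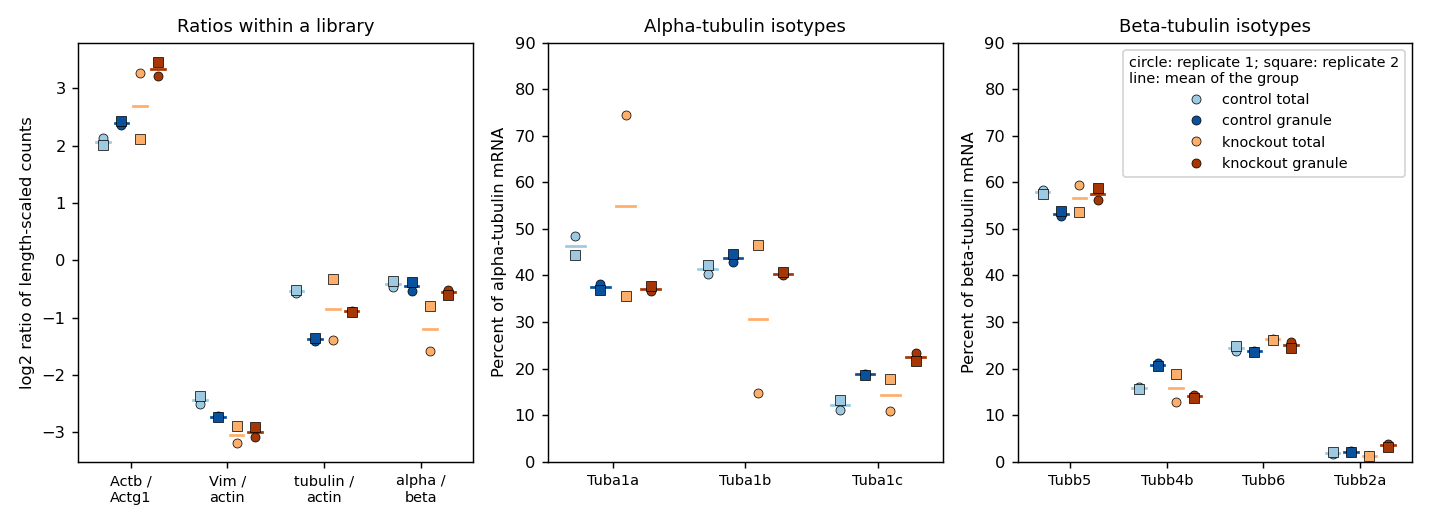
Ratios (log2, left) and isotype shares (percent, middle and right) of length-scaled counts in each library; circles and squares are replicates 1 and 2, lines are group means. The knockout total replicates lie far apart for the Actb to Actg1 ratio and for Tuba1a (74.4% and 35.6%), while Tuba1c is higher in granule than in total RNA in both genotypes.

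By the longest protein-coding transcript, all 10 mRNAs were shorter than the median tested protein-coding gene. Their longest protein-coding transcripts ran from 1598 nt (Tubb4b) to 2649 nt (Tubb5), against a median of 3027 nt over 15389 genes, and their median length percentile was 23.65. By the shortest basic transcript of each gene the median percentile was 37.95, with Tubb5 above the middle at 60.8, and by summed exons Vim was above it at 56.8. In control cells the median log2 granule to total difference was larger for longer genes, from -0.36 in the 3849 shortest genes to 0.37 in the 3846 longest (1 of 4 length classes each), and the share called higher went from 1.82% to 13%. Of the 10 genes, 5 fell in the shortest class and 5 in the next, whose medians were -0.36 and -0.15. Against this the median percentile of the 10 genes by control granule to total difference was 71.13 (60.78 to 82.17 over the 4 pairings of libraries), with Actb at 85.1 and Tuba1a at 46.5. In knockout cells it was 57.26, which lies above all 4 pairings of libraries (49.87 to 51.78). It was 49.22 without knockout total replicate 1 and 50.05 without replicate 2. The higher value thus appeared only with both of these replicates in the fit. The length classes in knockout cells ran from 0.16 for the shortest to -0.09 for the longest.

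**Figure D4:**
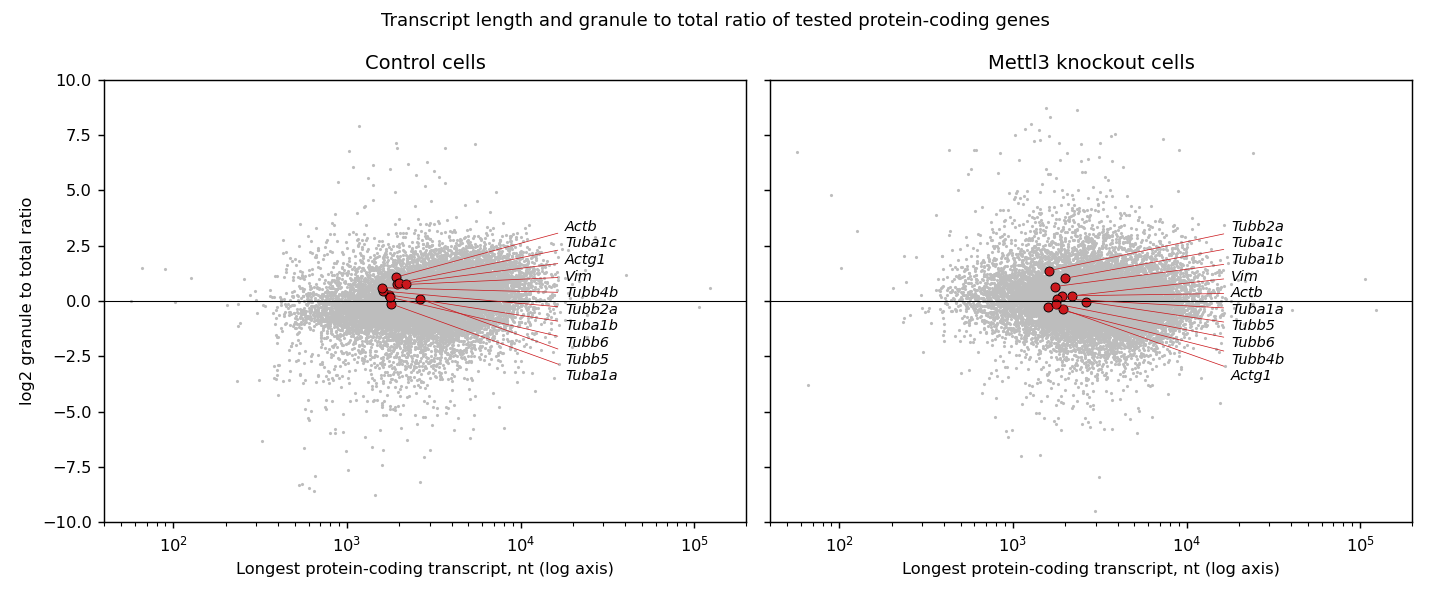
Log2 granule to total ratio of tested protein-coding genes (grey) against the length of the longest protein-coding transcript (log axis) in control and knockout cells; the 10 cytoskeletal genes are red. All 10 lie at 2649 nt or less, and Actb is the highest of them in control cells (1.08) and Tubb2a in knockout cells (1.37).

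Related genes were described by counts and medians from lists drawn up with earlier results of these data known, to be read against the share of all genes called and the median over all genes given above for each comparison. In control granule against total RNA 5.89% of all genes were called higher (21.5% without knockout total replicate 1 and 22.3% without replicate 2), and in knockout against control granule RNA 3.66% were called lower (19.4% and 21%). In the fit of all libraries, 4.17% of all genes were called lower in control granule against total RNA. In knockout against control granule RNA, 5.79% were called higher in that fit. Every list gene named below kept its direction without either knockout total library, in the comparison it is named for. Their values without a control library or a granule library were not examined. In the fit of only the groups compared, edgeR called 0 of all genes in knockout granule against total RNA and in knockout against control total RNA. The calls named below for those comparisons were therefore lost in that fit. The list counts were larger without either knockout total library. Where given, those without replicate 1 and without replicate 2 follow in that order. Of 13 other actins and tubulins tested, Tubb3, a tubulin typical of neurons, was lower in control granule than total RNA (34.2 against 4.27 CPM, log2 -3.00, adjusted p = 0.00983 by edgeR). Acta2, the smooth muscle actin, was lower in the knockout in total RNA (779 against 62.4 CPM, log2 -3.64, adjusted p = 0.0236 by edgeR) and in granule RNA (-2.55, adjusted p = 0.00802). Of 38 actin-binding genes, 8 were lower (25 and 26 without replicate 1 or 2) and 0 higher (2 and 1) in knockout than in control granule RNA, with a median of -0.74. They include Vcl (vinculin of focal adhesions, 148.7 against 21.9 CPM, log2 -2.76) and Lasp1 (an actin-binding LIM protein, -1.56). In control granule against total RNA 2 of the 38 were higher (22 and 22), the Arp2/3 complex genes Actr2 (1.65) and Arpc5 (1.19), with a median of 0.51.

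Of 25 genes for actin and tubulin folding and tubulin mRNA decay, 5 were lower (12 and 12) and 1 higher (4 and 2) in knockout than control granule RNA (median -0.34). Cct6a (-1.67) and Cct8 (-1.40), subunits of the chaperonin that folds actin and tubulin, were among those lower, and the prefoldin subunit Pfdn5 was higher (1.20). Another prefoldin subunit, Vbp1, was higher in granule than total RNA in control (2.51) and knockout cells (1.26). Of 26 microtubule-binding and tubulin-modifying genes, 4 were higher in control granule than total RNA (12 and 12), among them Kif5b (a kinesin heavy chain, 2.30) and Ckap5 (a microtubule polymerase, 2.02), and 0 were lower (1 and 1). Of 17 serum response factor regulators and targets tested, 3 were higher in control granule RNA (11 and 11), including the immediate early genes Fos (2.88) and Egr1 (2.78), and 5 were lower in knockout than control granule RNA (9 and 10, median -0.49), Acta2 and Vcl among them. Of 14 other intermediate filament and lamin genes, Nes, which encodes nestin, was called higher in control granule RNA (1.18), where 6 and 6 were called without replicate 1 or 2. In knockout granule against knockout total RNA, 3 of the 14 were called higher and 0 lower, against 9.17% of all genes called higher. Among the 3 were Krt18 (588 against 67.2 CPM, log2 3.13) and Krt8 (log2 3.65), a keratin pair. Krt8 was scarce, at 4.63 CPM in knockout granule and 0.367 in knockout total.

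Cytosolic ribosomal protein mRNAs are also short and abundant. Of 83 tested, 0 were called by edgeR in control granule against total RNA, where 5.89% of all genes were called higher and 4.17% lower. More of the 83 were called without either knockout total library, as were more of all genes. Their median was -0.40 against 0.52 for the 10 cytoskeletal genes, and their median length was 937 nt. Among 19 giant cytoskeletal mRNAs, with a median length of 9107 nt, the median was 0.61, with Nav1 (1.62) and Macf1 (1.39) higher and Tln2 (-1.45) lower. More of the 19 were called in both directions without either knockout total library. In knockout granule against control granule RNA the medians were 0.18 for the ribosomal genes, -0.50 for the giant mRNAs and -0.73 for the 10 genes. The difference between lists was not tested.

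Over the 8 libraries, the genes whose log2 CPM most resembled the mean profile of the 10 were Akt1 (Pearson r = 0.99), Plcb3 (0.98), Hnrnpl (0.98), Atp5g3 (0.97) and Fscn1 (0.97), out of 4486 genes of at least 50 CPM. The 8 points share 4 groups and the depth of their libraries, so r is a description. Among the 10 genes, r was highest for Tubb5 and Tubb6 (0.95), Tubb4b and Tubb6 (0.94), Actg1 and Tubb4b (0.93), and Tuba1b and Tuba1c (0.92), the last pair sharing sequence. Actb correlated less with its paralog Actg1 (0.68) than with Vim (0.86).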

How the data were processed

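Poly(A) RNA of 8 libraries (4 groups of 2) was analysed from the deposited table of raw counts per Ensembl gene, 1 column per library. STAR and DESeq2 and the builds GRCm38 and mm10 are named per the submitters' processing notes, with no role given. The counting program, strand setting and annotation are not given in the sources used here. Of 39017 identifiers, 37693 matched GENCODE M21, the source of names, lengths, GC content and coding sequences. Counts were tested with edgeR 4.0.16 in R 4.3.3, by its quasi-likelihood test (TMM scaling, expression filter, robust) in 1 model of 4 group means over 8 libraries with 4 residual degrees of freedom, and p-values were adjusted by Benjamini-Hochberg over 18952 genes. A gene is called at an adjusted p under 0.05. Log2 CPM used a prior count of 2. The script was tested on simulated data.

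The members, lists and tests were chosen with earlier results of these data known. All 10 genes are named, and from each list at most the 2 highest and 2 lowest called genes of a comparison. The most alike genes are the 5 of at least 50 CPM with the highest r. Gene lists that share members (Acta2, Vcl) are counted in each. Protein sequences were not used here. Alternatives were other scalings (size factors, upper-quartile, library size), DESeq2 1.42.0, voom in limma 3.58.1, filters (1 count, 5 CPM), a replicate block, GC and length trends (lowess, span 0.3), only the groups compared, leaving out each library, and, chosen after seeing the data, a crossed block, lists without either knockout total library, and levels per longest transcript.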

Additional observations from a re-analysis of the deposited data

How the results depend on the processing

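The 3 calls among the 10 genes were Actg1 and Vim in knockout against control granule and Tubb2a in knockout granule against total. They held without either knockout total library, where more of all genes were called. They were lost without any 1 of the 4 granule libraries, where fewer of all genes were called. Counts moved most without a knockout total library. With 2 libraries a group and 1 shared spread, counts of called genes moved with the libraries fitted, among all genes as among the 10. In every comparison, a larger share of all genes was called without either knockout total library, and a smaller share without any other library. The ranges given below for leaving out each library are to be read against that. The numbers of the 10 genes called, in the order control granule against total, knockout granule against total, knockout against control total, knockout against control granule, and interaction, were 0, 1, 0, 2 and 0. Leaving out each library in turn gave 0 to 6, 0 to 3, 0 to 5, 0 to 8 and 0 to 6, where the lone library left is assumed to vary like the other groups. DESeq2 gave 1, 1, 2, 3 and 0 (21.3%, 26.9%, 12.9%, 17.8% and 14.4%). Voom gave 5, 0, 0, 9 and 0 (39.1%, 5.18%, 0.164%, 55% and 2.11%). No filter gave 1, 2, 1, 4 and 1 (13.2%, 17%, 11.2%, 11.2% and 11.5%). GC trend removal gave 6, 1, 0, 4 and 2 (20.1%, 32.5%, 4.05%, 24% and 9.54%). A fit of only the groups compared gave 4, 0, 0 and 9 (42.4%, 0%, 0% and 57.3%), and has no interaction. Other scalings and the filter of 5 CPM gave the same 5 counts as the main fit. The shares were 8.85% to 11.9%, 16.3% to 17.8%, 0.195% to 0.653%, 7.92% to 9.57% and 0.438% to 0.823%. Length trend removal gave 0, 1, 0, 3 and 0 (11.1%, 20%, 0.723%, 9.93% and 0.66%). Upper-quartile scaling moved the median of all genes from -0.06 to -0.29 in control granule against total. Causes were not tested.

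Deviations of same-numbered replicates had r between groups from -0.602 (control total with knockout total) to 0.19. They gave no sign of pairing by number, but 2 libraries a group cannot show that the samples are unpaired. The replicate block gave 0, 1, 0, 1 and 0 calls (3.07%, 10%, 0%, 3.54% and 0% of all genes). Vim lost its granule call there (adjusted p = 0.0597 by edgeR). With GC trend removal added, the block gave 6, 1, 0, 3 and 1 (16.4%, 28.3%, 1.9%, 19.9% and 4.08%). The crossed block gave 0, 1, 0, 2 and 0 (11.5%, 16.7%, 0.496%, 8.29% and 0.375%).

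Of 50 fold changes, 18 changed sign under some alternative, none of them called. Tubb5 turned under upper-quartile scaling (-0.155 control granule, 0.136 interaction), library size (-0.0335, 0.0316 knockout granule, 0.0651) and the 5 CPM filter (-0.0446, 0.0324, 0.077), and Tubb6 under upper-quartile scaling (-0.0657). Without a filter Tuba1a was -0.0023 in knockout granule against total. With GC trend removal, values were Tuba1a 0.153 and -0.0453 in control and knockout granule against total and -0.198 in the interaction; Actb 0.0307, Tubb4b 0.153 and Tubb6 0.437 in knockout against control total; and Tuba1b -0.0336 and Tuba1c -0.339 in the interaction. Adding the replicate block gave Tuba1a 0.176, -0.0337 and -0.21, Actb 0.0109, Tubb4b 0.161, Tubb6 0.426, Tubb2a -0.0083 in knockout against control granule, and Tuba1c -0.282. Length trend removal gave Tuba1a 0.0277, -0.058 and -0.0857, Actb 0.0939, Tubb6 0.0322, Tubb2a -0.0146 and Tuba1c -0.0217. The median length percentile was 21 by exonic length and 37.95 by the shortest basic transcript.

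Leaving out single libraries gave these ranges where a sign changed. In control granule against total: Tuba1a -0.355 to 0.189, Tubb5 -0.136 to 0.406 and Tubb6 -0.0166 to 0.45. In knockout granule against total: Actb -0.23 to 0.642, Vim -0.0441 to 0.385, Tuba1a -0.0512 to 0.147, Tuba1b -0.148 to 2.40 and Tubb4b -0.605 to 0.0505. In knockout against control total: Actb -0.534 to 0.321, Tuba1c -1.61 to 0.0223, Tubb4b -0.596 to 0.0764 and Tubb6 -0.335 to 0.104. In knockout against control granule, Tubb2a ran from -0.0656 to 0.269. In the interaction: Tuba1a -0.0917 to 0.368, Tuba1b -0.431 to 2.08, Tuba1c -0.435 to 1.15 and Tubb5 -0.445 to 0.016. The knockout median percentile by granule ratio ran from 49.22 to 58.04. Knockout minus control shares ran from -5.57 to 13.8 points for Tuba1a, -15.0 to 0.947 for Tuba1b and -0.0972 to 2.84 for Tubb5, the granule minus total share of Tuba1b from -1.87 to 14.0, and the knockout minus control log2 tubulin to actin ratio from -0.18 to 0.352.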
